A study of Macaca fascicularis with 23 samples.

Results

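The aldehyde dehydrogenases described here are the products of 6 genes, ALDH1A1, ALDH2, ALDH3A2, ALDH4A1, ALDH6A1 and ALDH9A1. They were followed in livers of cynomolgus monkeys (Macaca fascicularis) dosed with ciprofibrate, a fibrate that is an agonist of the nuclear receptor PPAR-alpha. The members were all probe sets that the array annotation assigns to these 6 genes, which gave 8 of the 12625 probe sets on the array, for 6 of the 8226 genes that a probe set names alone. ALDH4A1 had 3 probe sets and each other gene had 1. Liver RNA was measured in 23 animals, each on its own human gene array. After 4 days there were 2 animals given ciprofibrate at 400 mg/kg/day and 2 given vehicle. The 15-day groups were 3 animals given vehicle and, for 3, 30, 150 and 400 mg/kg/day, 4 treated animals per dose. No genetic change was given for any group, and the labels used here state no age.

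Aldehyde dehydrogenases oxidise aldehydes to carboxylic acids with NAD or NADP as the electron acceptor. ALDH1A1 is a cytosolic enzyme that turns retinal into retinoic acid and also clears aldehydes of lipid peroxidation, and ALDH2 is the mitochondrial enzyme that oxidises the acetaldehyde made from ethanol. ALDH3A2 is the membrane-bound fatty aldehyde dehydrogenase, and in rodents its gene is a known target of PPAR-alpha. ALDH4A1 completes mitochondrial proline breakdown to glutamate, ALDH6A1 acts in the mitochondrial breakdown of valine and thymine, and ALDH9A1 oxidises aldehydes made from amines and acts in carnitine synthesis.

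Values are probe set intensities on a linear scale, and each probe set was compared only with itself across animals. Every array had been scaled so that its mean, after trimming 2% at each end, was between 150.065 and 150.08. All 10 hepatocyte markers looked for were measured, and none of the marker genes of any cell type had an intensity of 0. That does not show that each was detected. Some markers of other cell types, such as the endothelial CLEC4M with a median of 10, were too dim to be tested but are in the sums below. Comparisons used limma on log2(intensity + 16), with p-values adjusted by the Benjamini-Hochberg method over 7535 probe sets. An adjusted p under 0.05 counted as a call. Of the 8 member probe sets, 7 passed the filter on mean signal and were tested. The number of arrays limited the precision, most of all at 4 days.

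ALDH1A1 was the only one of the 6 genes that was called in a comparison of ciprofibrate with vehicle. After 15 days its intensity was 7456.9, 7185.5, 7528 and 4538.4 in the animals given 400 mg/kg/day, against 1279.7, 1791 and 2040.2 in vehicle animals. The lowest treated animal lay at more than 2 times the highest vehicle animal, and the groups did not overlap. The log2 difference was 1.96 ± 0.25 (SE), a 3.88-fold rise with a 95% interval of 2.70 to 5.59, and the limma adjusted p was 9.96e-05. Of all probe sets tested in that comparison, 2.14% were called in either direction, 1.26% as higher and 0.876% as lower. Called or not, 6.72% had every 400 mg/kg/day animal above every vehicle animal.

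The lower doses left ALDH1A1 nearer to vehicle. At 3 mg/kg/day the 4 animals had 1857, 1706.7, 2795 and 1344.1, which overlapped the vehicle range. At 30 mg/kg/day they had 2904.3, 3684.5, 4125 and 1985.2, and at 150 mg/kg/day 3239.3, 2854.6, 2611.3 and 2127.6. All 4 animals at 150 mg/kg/day were above all 3 vehicle animals, as was so for 5.16% of all probe sets tested, whereas at 30 mg/kg/day 1 animal fell within the vehicle range.

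Against vehicle, the log2 difference of ALDH1A1 was 0.15 ± 0.25 at 3, 0.87 ± 0.25 at 30 and 0.67 ± 0.25 at 150 mg/kg/day (SE), and none of these passed the test (limma adjusted p 0.886, 0.288 and 0.288). Few probe sets of any kind were called at these doses. The share was 0% at 3, 0.0133% at 30 and 0.677% at 150 mg/kg/day by limma, while 757 (10%), 740 (9.82%) and 850 (11.3%) of the 7535 had an unadjusted p under 0.05. All the 15-day comparisons with vehicle shared the same 3 vehicle animals.

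Over the 5 dose steps at 15 days, ALDH1A1 rose by 0.44 ± 0.06 log2 units per step (SE; limma adjusted p 3.23e-05), and it was the only member of 7 called for a slope, where 3.11% of all probe sets tested were called. The steps were not even. The step up to 400 from 150 mg/kg/day was 1.28 ± 0.24 (SE), a 2.43-fold difference with no overlap between the groups (limma adjusted p 0.0163). In that comparison 0.491% of all probe sets were called, and 3.61% had all arrays of the higher dose above those of the lower. The call was lost, with an adjusted p of up to 0.0608, when the first animal at 400 mg/kg/day or the third or the fourth at 150 mg/kg/day was left out. Between 400 and 3 mg/kg/day, a comparison that holds no vehicle animal, the difference was 1.81 ± 0.24 (SE; limma adjusted p 4.88e-05; 4.18% of all probe sets called). The groups did not overlap, as was so in that direction for 5.75% of all probe sets.

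**Figure D1:**
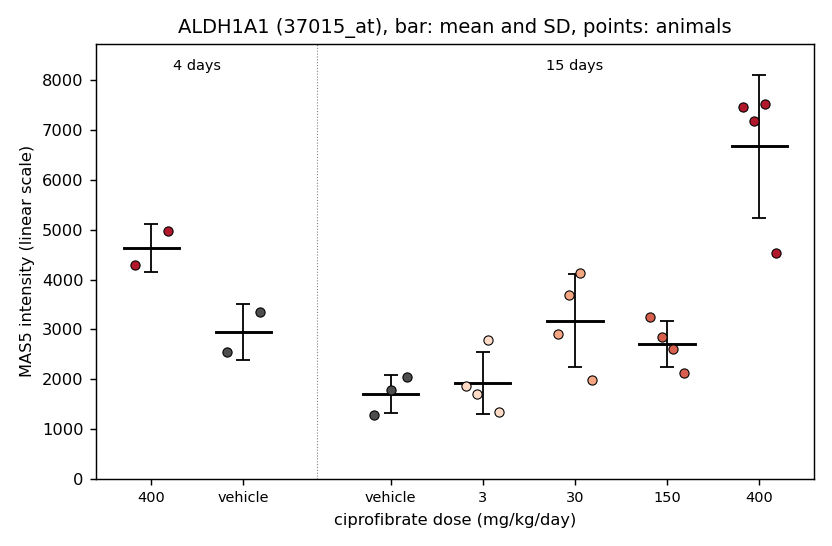
Intensity of the ALDH1A1 probe set (linear scale) by ciprofibrate dose in mg/kg/day, with the 4-day groups on the left and the 15-day groups on the right; points are animals, horizontal lines group means and error bars SD. The 400 mg/kg/day animals at 15 days lie between 4538.4 and 7528, above all other 15-day animals.

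At 4 days ALDH1A1 had 4294.2 and 4973.7 at 400 mg/kg/day, against 2548.3 and 3346.1 in vehicle animals. Both treated animals were above both vehicle animals, but with 2 animals a group 18.4% of all probe sets had that arrangement. The log2 difference was 0.66 ± 0.33 (SE; 95% interval -0.03 to 1.35) and did not pass the test (limma adjusted p 0.699; 0.292% of all probe sets called). The effect at 15 days was larger than that at 4 days by 1.30 ± 0.42 log2 units (SE), with an unadjusted p of 0.00514 and a limma adjusted p of 0.999. No probe set was called for this difference between days (0%), while 254 of 7535, or 3.37%, had an unadjusted p under 0.05.

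In vehicle animals ALDH1A1 was lower at 15 than at 4 days, without passing the test. ALDH1A1 averaged 1704 ± 388 in the 15-day vehicle animals (SD, n = 3) and 2947 ± 564 in the 4-day vehicle animals (SD, n = 2). All 15-day animals were lower, as were those of 17.5% of all probe sets, and the log2 difference of -0.80 ± 0.30 (SE) did not pass the test (limma adjusted p 0.245). Over the 7 group means of ALDH1A1, from lowest to highest, the order was vehicle at 15 days, 3 mg/kg/day, 150 mg/kg/day, vehicle at 4 days, 30 mg/kg/day, 400 mg/kg/day at 4 days and 400 mg/kg/day at 15 days. Neighbours in this order had overlapping ranges except at 1 step, that between 400 mg/kg/day at 4 days and 30 mg/kg/day at 15 days.

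**Figure D2:**
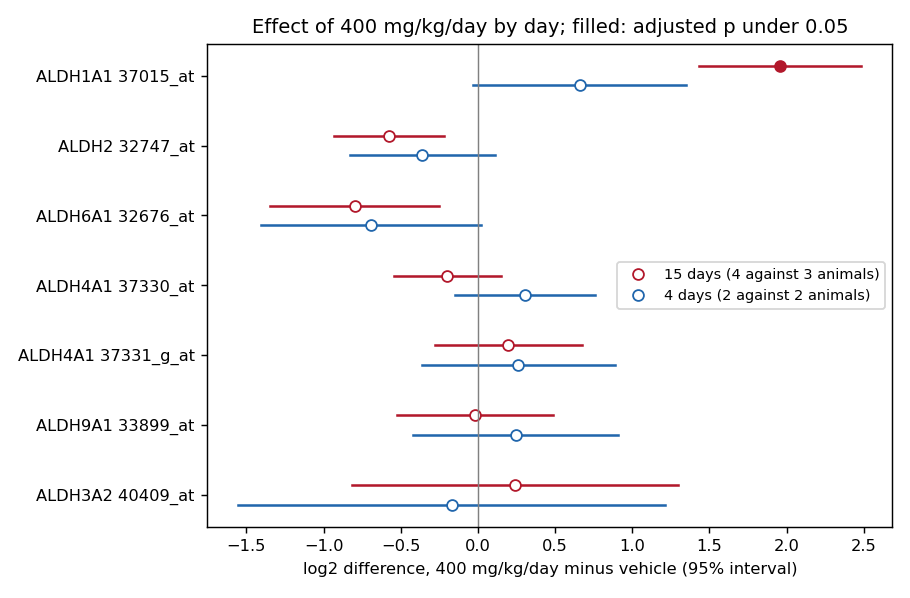
Log2 difference between 400 mg/kg/day and vehicle for the 7 tested probe sets, at 15 days (red, upper) and 4 days (blue, lower), with 95% intervals; filled points had an adjusted p under 0.05. Only ALDH1A1 at 15 days, at 1.96, is filled.

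ALDH2, the acetaldehyde enzyme, had lower values at 400 mg/kg/day on both days without passing the test. After 15 days it had 4427.3, 5394.5, 4660.1 and 4893.4 at 400 mg/kg/day, against 8867.7, 6486 and 6531.3 in vehicle animals. Every treated animal was below every vehicle animal, as was so for 6.53% of all probe sets tested. The log2 difference was -0.58 ± 0.17 (SE; 95% interval -0.94 to -0.22), with an unadjusted p of 0.00289 and a limma adjusted p of 0.0935. It became a call when the arrays were quantile normalized (-0.75, limma adjusted p 0.00661).

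At the lower doses ALDH2 averaged 7129 ± 1079 at 3, 7332 ± 691 at 30 and 6497 ± 1576 at 150 mg/kg/day (SD, n = 4 each), all overlapping the vehicle mean of 7295 ± 1362 (SD, n = 3). Against 3 mg/kg/day, the 400 mg/kg/day animals were again all lower, as for 5.45% of all probe sets, with a log2 difference of -0.55 ± 0.16 (SE; limma adjusted p 0.0543). The slope over dose was -0.13 ± 0.04 log2 units per step (SE; limma adjusted p 0.0639). Both became calls under quantile normalization (limma adjusted p 0.028 and 0.00628) and without the first 3 mg/kg/day animal (0.032 and 0.0388), and the slope also without the first 150 mg/kg/day animal (0.0199).

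At 4 days ALDH2 had 4487.8 and 4597 at 400 mg/kg/day, against 5718.8 and 5960 in vehicle animals. Both treated animals were lower, as for 23.6% of all probe sets at that day, and the log2 difference of -0.36 ± 0.23 (SE) did not pass the test (limma adjusted p 0.84). Vehicle animals were higher at 15 than at 4 days, all 3 of them, as for 16.1% of all probe sets (log2 difference 0.30 ± 0.21, SE; limma adjusted p 0.577). The ALDH2 treatment effect differed between the days, 15 minus 4, by -0.22 ± 0.28 log2 units (SE), within its error. Ordered by mean, the 400 mg/kg/day groups of both days held the lowest places for ALDH2, and between them and the next group, vehicle at 4 days, there was the only gap without overlapping ranges.

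ALDH6A1, the methylmalonate semialdehyde dehydrogenase, was lower in 15-day than in 4-day vehicle animals. In vehicle animals it had 289.3, 348.3 and 229.6 at 15 days, against 605.8 and 1032.6 at 4 days. The 15-day vehicle values were all lower, as for 17.5% of all probe sets, and the log2 difference was -1.42 ± 0.31 (SE), a 2.68-fold lower level that passed the test (limma adjusted p 0.0265). It was the only member of 7 called between the vehicle groups, where 0.863% of all probe sets were called, 0.226% as lower. The call rested on few animals. Leaving out each of these 5 animals in turn gave differences of -1.80 to -1.05 and adjusted p-values of 0.0367 to 0.429, and the call was kept only without the second 15-day vehicle animal.

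Some signs of RNA quality and of cell types moved with the day in the same animals. The ratio of the 5′ to the 3′ probe set of ACTB, a sign of RNA integrity, was 0.54 to 0.606 in 15-day vehicle animals, against 0.748 to 0.988 in 4-day vehicle animals. For GAPDH the ratio was 0.721 to 1.31, against 0.947 to 0.993, which overlapped. The summed intensity of the red cell markers measured, 3 of 6, was 1950 to 2998 at 15 days, against 4836 to 5204 at 4 days. Hepatocyte markers, 10 of 10 measured, summed to 94658 to 104685 at 15 days, against 82390 to 82469 at 4 days. T and NK cell markers, 7 of 7 measured, summed to 507.5 to 719.7 at 15 days, against 772.2 to 785 at 4 days, and cholangiocyte markers, 6 of 7 measured, to 311.7 to 507.7, against 266.8 to 298.3. The sums of macrophage, endothelial and stellate cell markers overlapped between the vehicle groups. With so few animals, 16.1% of all single probe sets tested had all 15-day vehicle animals higher, and 17.5% had them all lower. Of the 10 hepatocyte markers, 4 were lower at 15 days. In either direction 5 had an unadjusted p under 0.05 (limma), beside 13% of all probe sets tested. No marker of any list was called by limma between the vehicle groups. The part of these signs in the ALDH6A1 difference was not tested. The labels do not say whether 15-day and 4-day animals were processed together, so day and any processing batch cannot be told apart in this or any other comparison between days.

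Within each day, ALDH6A1 was lower at 400 mg/kg/day without passing the test. After 15 days the treated animals had 147.4, 128.3, 171.8 and 186.4, all below the vehicle animals, as for 6.53% of all probe sets tested. The log2 difference was -0.80 ± 0.26 (SE; 95% interval -1.34 to -0.25; limma adjusted p 0.136). After 4 days the treated animals had 514.2 and 455.6, again both below vehicle, as for 23.6% of all probe sets at that day. The log2 difference at 4 days was -0.69 ± 0.34 (SE; limma adjusted p 0.68). With each 4-day animal left out in turn, the 4-day value ran from -1.07 to -0.31, both extremes set by the vehicle animal left out. The 3, 30 and 150 mg/kg/day groups averaged 216 ± 85, 212 ± 43 and 218 ± 35 (SD, n = 4 each), against 289 ± 59 in 15-day vehicle animals (SD, n = 3). Between 400 and 3 mg/kg/day the animals overlapped, with a log2 difference of -0.34 ± 0.24 (SE; limma adjusted p 0.512). The slope over dose was -0.15 ± 0.06 log2 units per step (SE; limma adjusted p 0.191). The difference between the effects at both days was -0.11 ± 0.43 log2 units (SE), within its error.

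**Figure D3:**
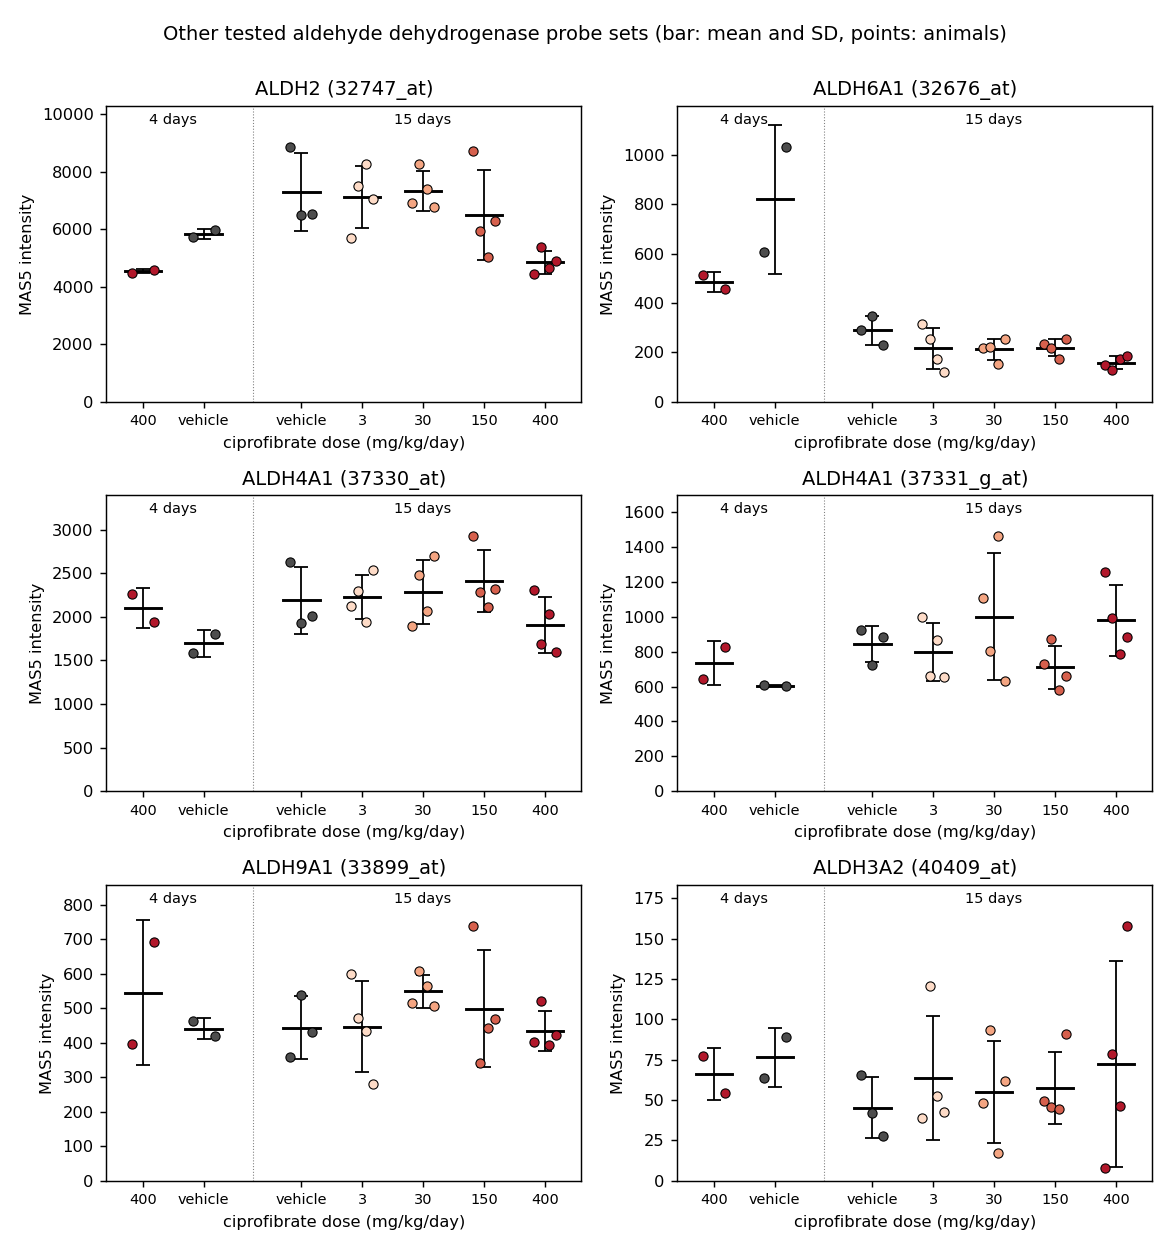
Intensity (linear scale) of the other 6 tested aldehyde dehydrogenase probe sets by ciprofibrate dose in mg/kg/day, 4-day groups on the left and 15-day groups on the right of each panel; points are animals, lines group means and error bars SD. ALDH2 and ALDH6A1 at 400 mg/kg/day lie below vehicle of the same day, and ALDH6A1 is lower in every 15-day group than in the 4-day groups.

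ALDH4A1, the proline pathway enzyme, showed no difference that passed the test on either of its tested probe sets. On the brighter of these, intensities were 2301.8, 1689.1, 2032.3 and 1600.9 at 400 mg/kg/day after 15 days, against 2630.8, 1924.6 and 2007.3 in vehicle animals. The groups overlapped, and the log2 difference was -0.20 ± 0.17 (SE; 95% interval -0.54 to 0.15; limma adjusted p 0.727). On the dimmer one the same comparison gave 0.20 ± 0.23 (SE; 95% interval -0.28 to 0.67; limma adjusted p 0.824).

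At 4 days the brighter ALDH4A1 probe set had 2261.9 and 1937.1 at 400 mg/kg/day, against 1583.9 and 1807.7 in vehicle animals, and the dimmer had 646.3 and 824.8, against 607.1 and 605.4. On both, each treated animal was above each vehicle animal, the arrangement of 18.4% of all probe sets. The log2 differences of 0.30 ± 0.22 on the brighter and 0.26 ± 0.30 on the dimmer (SE) did not pass the test (limma adjusted p 0.897 and 0.998). The brighter thus had opposite signs on the 2 days, and its effect differed between them, 15 minus 4, by -0.50 ± 0.28 log2 units (SE), with an unadjusted p of 0.0812 and a limma adjusted p of 0.999.

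The tested ALDH4A1 probe sets had differences of opposite sign between the upper doses, and neither passed the test. Between 400 and 150 mg/kg/day, the brighter differed by -0.34 ± 0.15 and the dimmer by 0.45 ± 0.21 (SE). The unadjusted p-values were 0.0384 and 0.0472 and the limma adjusted p-values 0.405 and 0.438. Of all probe sets tested, 11.1% had an unadjusted p under 0.05 there. Whether the probe sets differed from each other was not tested. The group mean at 150 mg/kg/day was the highest of 7 on the brighter and the second lowest on the dimmer. The third ALDH4A1 probe set ran from 6.9 to 113.7 over all animals with an average of 43.3, was below the filter, and was not tested.

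ALDH9A1, the carnitine pathway enzyme, stayed close to vehicle. It had 402.5, 520.7, 393.1 and 422 at 400 mg/kg/day after 15 days, against 357.9, 540 and 432.7 in vehicle animals. The treated animals lay inside the vehicle range, and the log2 difference was -0.02 ± 0.24 (SE; limma adjusted p 0.989). Its 95% interval ran from -0.53 to 0.49. Over all 7 groups its mean ran only from 435 to 549, with every pair of neighbours overlapping.

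ALDH3A2, the fatty aldehyde dehydrogenase, was too dim on this array for a narrow estimate. Its intensity ran from 7.7 to 158.1 over the 23 animals, and the lowest and the highest values both came from the 400 mg/kg/day group at 15 days, which had 7.7, 78.4, 46.3 and 158.1, against 65.7, 42.2 and 28 in vehicle animals. The log2 difference was 0.24 ± 0.51 (SE), and its 95% interval of -0.81 to 1.30 corresponds to ratios of 0.569 to 2.46. At 4 days it had 77.5 and 54.6 at 400 mg/kg/day, against 63.4 and 89.4 in vehicle animals, which overlapped.

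**Figure D4:**
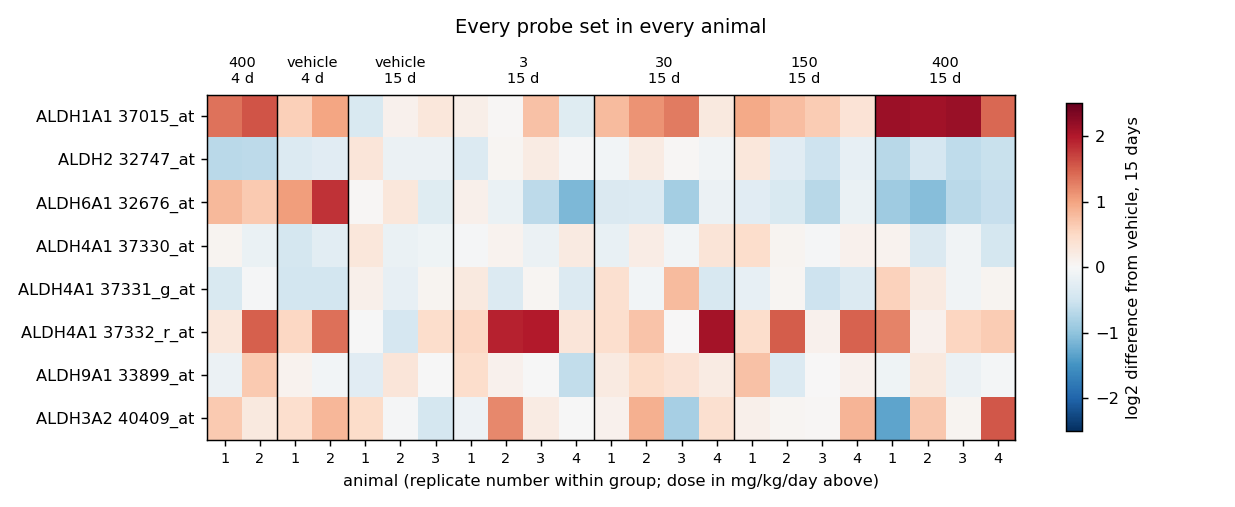
Log2 difference of each animal from the mean of the 15-day vehicle animals for all 8 aldehyde dehydrogenase probe sets (rows) in all 23 animals (columns, grouped by dose in mg/kg/day and day); red is higher, blue lower. The ALDH1A1 row is darkest in the 400 mg/kg/day columns at 15 days, except for the fourth animal. That animal is paler than the second 400 mg/kg/day animal at 4 days. The ALDH6A1 row is red in the 4-day columns.

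Across the 7 tested member probe sets, the median log2 difference between 400 mg/kg/day and vehicle was -0.02 at 15 days and 0.25 at 4 days, beside -0.03 and -0.05 for all probe sets tested. At 15 days 1 of the 7 rose, 0 fell and 6 were not called, and 3 had an unadjusted p under 0.05, beside 12.5% of all probe sets tested. At 4 days 0 of 7 were called by limma and 0 had an unadjusted p under 0.05, beside 7.63%. The RNA came from whole liver, so fewer cells of a type and less RNA per cell cannot be told apart in any of these values.

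Other aldehyde dehydrogenase genes were looked up beside the members. Of 13 listed, 9 were on the array and 7 were tested, and after 15 days of 400 mg/kg/day 0 of 7 were called, with a median log2 difference of -0.26. ALDH1L1, which oxidises formyl-tetrahydrofolate in liver, averaged 7472 at 400 mg/kg/day and 4939 in vehicle animals, with a log2 difference of 0.71 ± 0.26 (SE; limma adjusted p 0.209). ALDH1B1, a mitochondrial relative of ALDH2, averaged 182 and 303, with a log2 difference of -0.80 ± 0.39 (SE; limma adjusted p 0.404). These examples were chosen after their values were seen.

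Among enzymes that make or consume aldehydes, calls went in both directions. Of 14 tested genes for the oxidation and reduction of alcohols and aldehydes, AKR1B10 rose, CYP2E1 fell and 12 were not called after 15 days of 400 mg/kg/day. The aldo-keto reductase AKR1B10, which reduces retinal and other aldehydes to alcohols, differed by 3.61 ± 0.40 log2 units (SE; limma adjusted p 1.12e-05). It also rose at 4 days, by 3.10 ± 0.52 (SE; limma adjusted p 0.013), although that call was lost without the first animal of either group (adjusted p up to 0.191) and with only the 4-day groups fitted (0.107). CYP2E1, which makes acetaldehyde from ethanol, fell by 3.56 on the log2 scale (SE 0.49; limma adjusted p 0.000161). The alcohol dehydrogenase ADH1A averaged 23020 at 400 mg/kg/day and 20740 in vehicle animals, which overlapped (log2 difference 0.18 ± 0.17, SE; limma adjusted p 0.771). Over the dose steps AKR1C4, another aldo-keto reductase, also rose, by 0.29 ± 0.08 per step (SE; limma adjusted p 0.0362), a call lost when any of 8 of the 19 animals was left out alone (adjusted p up to 0.209). It was also lost in 5 of 11 other settings: without the filter, the variance trend or the vehicle group, with a replicate block, and with only the 15-day groups fitted (adjusted p 0.0534 to 0.125).

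Among 10 tested genes of retinoid handling, 1 fell and 9 were not called. RDH16, a retinol dehydrogenase whose product is the retinal that ALDH1A1 oxidises, averaged 579 at 400 mg/kg/day and 1207 in vehicle animals after 15 days. No treated animal reached the lowest vehicle animal, as was so for 6.53% of all probe sets tested. The log2 difference of RDH16 was -1.06 ± 0.23 (SE; limma adjusted p 0.0129). The call was lost without the first vehicle animal or the third at 400 mg/kg/day (adjusted p 0.0651 and 0.0516). CYP26A1, which degrades retinoic acid, averaged 19.9 and 94.9, with overlapping groups and a limma adjusted p of 0.344. Its treated mean was below the filter intensity of 39.7, so the size of that difference is uncertain. RBP4, the retinol carrier, averaged 3847 and 2447, with a limma adjusted p of 0.268. All treated animals were higher for RBP4, as for 6.72% of all probe sets tested.

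The valine, proline and amine pathways around ALDH6A1, ALDH4A1 and ALDH9A1 gave 1 called gene each after 15 days of 400 mg/kg/day. ECHS1, the enoyl-CoA hydratase of valine and fatty acid breakdown, was 1 of 11 tested and rose by 0.93 ± 0.22 (SE; limma adjusted p 0.0261). GOT2, the mitochondrial aspartate aminotransferase, was 1 of 7 and rose by 0.84 ± 0.21 (SE; limma adjusted p 0.0322). SAT1, which acetylates spermidine and spermine, was 1 of 10 and rose by 0.85 ± 0.15 (SE; limma adjusted p 0.00236). Leaving out animals singly ended the ECHS1 call for 5 of 7 animals (adjusted p up to 0.163) and the GOT2 call for 6 of 7 (up to 0.171). Both were also lost without the variance trend (adjusted p 0.063 for ECHS1 and 0.0798 for GOT2), and GOT2 without the filter (0.0525). PRODH, which starts proline breakdown, averaged 1015 and 1157 and was not called (limma adjusted p 0.767). Of 7 tested genes of fatty aldehyde and omega oxidation, around ALDH3A2, 0 were called. At 4 days 0 genes of these valine, proline, amine and fatty aldehyde lists were called by limma.

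Between the vehicle groups, IVD, the isovaleryl-CoA dehydrogenase of leucine breakdown, was 1 of 11 tested genes of the branched-chain amino acid list around ALDH6A1, and the other 10 were not called. IVD averaged 195 in 15-day vehicle animals and 522 in 4-day vehicle animals, a log2 difference of -1.37 ± 0.31 (SE; limma adjusted p 0.0338). The call was lost whichever of the 5 animals was left out (adjusted p 0.0584 to 0.325), without the filter (0.0518), without the variance trend (0.053) and with only the vehicle groups fitted (0.112).

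Markers of liver cell types differed alongside the members after 15 days of 400 mg/kg/day. The summed intensity of the 10 hepatocyte markers ran from 67566 to 83075 at 400 mg/kg/day, against 94658 to 104685 in vehicle animals, and without CYP2E1 from 67322 to 80984, against 81228 to 92519. Of these 10, CYP2E1 fell and none rose. Over the other 9 the median log2 difference was 0.00, 4 of the 9 were lower, 0 were called by limma and 2 had an unadjusted p under 0.05, so the lower sum was not shared by most of them. The sums also lay lower for Kupffer cell and macrophage markers, 8 of 10 measured, at 2516 to 3454 against 3921 to 5419, and for endothelial markers, 8 of 10 measured, at 1318 to 1781 against 2082 to 2301. All 7 tested macrophage and all 6 tested endothelial markers were lower, with median log2 differences of -0.40 and -0.52. In each of these lists 3 had an unadjusted p under 0.05, and none were called by limma. Stellate cell and fibroblast markers, 9 of 10 measured, summed to 717 to 910 against 886 to 1183, which overlapped. Of the 7 tested, TIMP1, an inhibitor of matrix metalloproteinases, fell by 1.81 on the log2 scale (SE 0.42; limma adjusted p 0.0228) and the other 6 were not called. The sums for cholangiocyte, T and NK cell and red cell markers overlapped those of vehicle animals. The ACTB ratio was 0.552 to 0.839, against 0.54 to 0.606 in vehicle animals, which overlapped. After 4 days it was 1.02 to 1.21 against 0.748 to 0.988, without overlap. The GAPDH ratio overlapped on both days, at 0.964 to 1.25 against 0.721 to 1.31 after 15 days. After 4 days it was 0.974 to 1.17 against 0.947 to 0.993. The part of these shifts in the values of ALDH1A1, ALDH2 and ALDH6A1 was not tested.

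At 4 days the marker sums were also lower at 400 mg/kg/day in 6 of the 7 cell type lists, with no overlap. With 2 animals a group, 23.6% of all single probe sets tested had both treated animals lower. The median log2 difference of the tested markers ran from -0.75 for the red cell list to -0.01 for the cholangiocyte list. Hepatocyte markers summed to 66224 to 66937 at 400 mg/kg/day, against 82390 to 82469 in vehicle animals, and without CYP2E1 to 61989 to 62396, against 68765 to 70512. Kupffer cell and macrophage markers summed to 2942 to 3312, against 3924 to 5306 in vehicle animals, and stellate cell and fibroblast markers to 700 to 971, against 1047 to 1210. T and NK cell markers, 7 of 7 measured, summed to 471 to 543 at 400 mg/kg/day, against 772 to 785 in vehicle animals. Red cell markers summed to 1721 to 3391, against 4836 to 5204 in vehicle animals, and cholangiocyte markers, 6 of 7 measured, to 233.8 to 262.5, against 266.8 to 298.3. Endothelial markers overlapped, at 1854 to 1994 against 1937 to 2157. No marker in any of these lists was called by limma at 4 days, and 0 to 2 in each list had an unadjusted p under 0.05. The part of these shifts in the 4-day values of ALDH1A1, ALDH2, ALDH6A1 and AKR1B10 was not tested.

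The genes most like each member across the 23 arrays were found by Pearson's correlation of log2 values among 8220 genes. It is given as a description, since the arrays share doses and days. ALDH1A1 was most like SAT1 (r = 0.89), the electron transfer flavoprotein subunit ETFA (0.87) and ECHS1 (0.86). After each group's mean was taken out, these r were 0.54, 0.65 and 0.69. ALDH2 was most like the lysosomal phospholipase PLA2G15 (0.80), the matrix proteoglycan BGN (0.79) and the collagen chain COL6A3 (0.77), which had adjusted p-values of 0.098, 0.144 and 0.0623 after 15 days of 400 mg/kg/day (limma).

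ALDH6A1 was most like the microtubule protein MAP1A (0.83), the protein kinase A subunit PRKACA (0.78) and IVD (0.77). The r for IVD was 0.15 once group means were taken out, so most of that likeness lay between groups. ALDH4A1 was most like the mitochondrial elongation factor TUFM (0.87), the complex I subunit NDUFV1 (0.81) and the glycine transporter SLC6A5 (0.72), and for TUFM the r within groups was 0.84. Before group means were taken out, likeness was weaker for ALDH3A2 (highest r 0.71, PTGDR2) and ALDH9A1 (highest r 0.67, PDE1C). Both of these partners were below the signal filter. Within groups their r were 0.77 and 0.61, beside 0.54 for SAT1 with ALDH1A1, so that ranking did not hold there. Next came N4BP2L1 (0.68) and DYNC1H1 (0.65) for ALDH3A2, and MTOR (0.65) and HSDL2 (0.63) for ALDH9A1, over all arrays.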

How the data were processed

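Liver RNA of 23 monkeys was measured on a human gene array, 1 array per animal. The authors deposited 1 intensity per probe set and array, on a linear scale. These were made with MAS5 according to what the submitters' processing notes name. Its version and settings are not given in the sources used here, and detection calls were not used. Which human probes match monkey transcripts was not checked. No protein, promoter or probe sequences were used here.

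The labels gave each array its dose and day, and so its group. After 67 control probe sets were set aside, those with a mean log2(intensity + 16) at or above the 40th percentile (5.80, an intensity of 39.7) were tested, 7535 in all. Means of all 7 groups were fitted in a single model by limma 3.58.1 (R 4.3.3; 16 residual degrees of freedom, intensity trend), so that groups of 2, 3 and 4 animals shared an estimate of spread. Tests were two-sided, with Benjamini-Hochberg adjustment over all 7535. The slope used equally spaced dose steps from vehicle to 400 mg/kg/day. SE and 95% intervals come from that fit, and SD from a group's arrays. The fit was tested on simulated data.

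Members and gene lists were chosen with earlier results of these data known. All member probe sets are described. Named beside them are up to 4 called genes of each list with the smallest p after 15 days of 400 mg/kg/day and the 3 genes most correlated with each member. Genes named from other comparisons, or not called, were chosen after their values were seen. The brightest probe set that names a gene alone stood for that gene. Alternatives covered the pseudocount, filter, scaling, variance trend, array weights, groups in the fit, dose score, a block for replicate number, and leaving out each animal.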

Additional observations from a re-analysis of the deposited data

Results flagged for a closer look

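Within each group of 4 animals, the member probe sets were searched for a single animal far from the other 3. Of 32 groups, 2 held one, and chance alone gives about 1 in 20. For ALDH1A1 at 400 mg/kg/day after 15 days, the fourth animal had 4538.4 while the others had 7185.5 to 7528. Without it the log2 difference from vehicle was 2.13 in place of 1.96. For ALDH3A2 at 150 mg/kg/day after 15 days, the fourth animal had 91 while the others had 44.5 to 49.2.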

How the results depend on the processing

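The rise of ALDH1A1 at 400 mg/kg/day after 15 days was called under all 9 other settings tried (log2 difference 1.87 to 2.12, adjusted p up to 0.00312) and without each animal in turn (1.77 to 2.13, adjusted p up to 0.00149). The number of members called for 400 mg/kg/day against vehicle, for the slope and for 400 against 3 mg/kg/day was 1, and became 2, with ALDH2 added, under quantile normalization. It was also 2 for the slope over treated groups alone and for 400 against 3 mg/kg/day with array weights, and leaving out single animals gave 1 to 2 in both. For 400 against 150 mg/kg/day it was 1, but 0 without the variance trend and 0 to 1 without single animals. Between the vehicle groups it was 1 (ALDH6A1), but 0 without the variance trend, 0 with only those groups fitted, 0 with the replicate block and 0 to 1 without single animals. Replicate numbers did not pair the animals (58 same-numbered pairs, r -0.09 to 0.07). A replicate block gave 1 member called at 150 and 1 at 30 mg/kg/day, ALDH1A1 in both (0.84 and 1.03, adjusted p 0.0324 and 0.0294), against 0 without it. The cause of these changes was not tested. No called member changed sign. Over all probe sets, 161 were called at 400 mg/kg/day after 15 days, against 252 with array weights, 93 without the first vehicle animal and 94 without the first animal at 400 mg/kg/day; 95 rose and 66 fell, but 109 and 40 after median scaling, which moved the median of all probe sets to 0.07. At 4 days 22 were called, against 1 with only those groups fitted and 113 with array weights, and between the vehicle groups 65, against 1 and 262. Alternatives that moved the other counts by over 1.5 times gave 13 to 30 for 51 at 150 mg/kg/day, 0 to 5 for 1 at 30, 2 to 3 for 0 at 3, and 4 to 24 for 37 between 400 and 150. The dim signal of ALDH3A2 and of the third ALDH4A1 probe set limits what these arrays can show of them.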

Other observations

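Of the 18 genes most like a member, 2 had an array identifier consecutive with that of the member. These were ECHS1 beside ALDH1A1, and NDUFV1 beside the brightest probe set of ALDH4A1. Whether these probe sets share anything in the array's design was not tested.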
